A study of Homo sapiens with 12 samples.

Results

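Chromatin remodellers move, evict or exchange nucleosomes, and histone modifiers add or remove acetyl and methyl groups on histone tails; 52 genes coding for such proteins were chosen by name. Deacetylases and DNA methyltransferases were not among them. Of these 52 genes, 51 had a probe set on the array whose annotation named that gene alone, out of 11963 genes with such a probe set, and each was read from the probe set with the highest mean signal over the 12 arrays. INO80 had no such probe set and was not analysed. The 51 members fell into 10 subunits of SWI/SNF, 6 ISWI ATPases and partners, 5 CHD remodellers, EP400 and ATRX, 7 acetyltransferases with their cofactor TRRAP, 6 methyltransferases, 4 subunits of Polycomb repressive complex 2 (PRC2), 9 demethylases and the bromodomain reader BRD2.

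RNA of RKO cells, an established human colorectal cancer line, was hybridised to Human Genome U133A 2.0 arrays. The 4 groups of 3 arrays each were compared, namely cells given thymoquinone (TQ, a quinone of black cumin seed) at 20 µM, cells given 5-fluorouracil (5-FU, an antimetabolite of pyrimidine synthesis) at 10 µg/mL, about 76.8 µM, cells given both at those concentrations (TQ+5-FU), and control cells. The methods state 24 h of exposure and DMSO for the controls, whereas the sample labels call the controls untreated. All groups are the same line in culture, and a p-value here reflects how far arrays scatter within their groups. The fit on all arrays pools that scatter over the 4 groups for each probe set. The SE and p-value of a TQ difference thus also carry the scatter of the 5-FU and TQ+5-FU arrays. The methods speak of independent biological replicates for the study as a whole, and the labels do not tie the arrays to separate cultures, so that part of this scatter may be technical. The values are log2 signals, differences being differences of log2 signal, and levels are compared between groups within a probe set, never between genes. A drop in signal in such a bulk measurement cannot tell fewer cells of a kind from less RNA per cell.

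As background, SWI/SNF complexes slide and evict nucleosomes through the ATPases SMARCA4 or SMARCA2, ISWI enzymes space nucleosomes evenly, CHD proteins couple remodelling to histone marks, and the INO80 family exchanges histone variants. Acetyltransferases such as EP300 and CREBBP open chromatin at enhancers, PRC2 writes the repressive mark H3K27me3, and demethylases erase such methyl marks. In colorectal cancer, ARID1A and the lysine methyltransferases KMT2D and SETD2 are known as recurrently mutated genes.

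2 arrays stood apart from the rest, namely 5-FU replicate 3 and TQ+5-FU replicate 2, and the counts and the main calls are given with all 12 arrays and with the 10 that remain without them. The lowest correlation between any pair of arrays was 0.867, and 0.983 among the 10. 5-FU replicate 3 also had the highest mean signal of the spiked poly-A controls, 9.47 against 8.22 to 8.97 on the other 11 arrays. Its part in the results was not tested. The 3′ minus 5′ log2 signal lay between 0.56 and 0.96 for ACTB and between 0.05 and 0.13 for GAPDH. EPCAM and KRT18, markers of colorectal epithelium, were high on every array, whereas KRT19, CDH1 and VIL1 stayed between 3.30 and 4.50 on a scale that ran from 2.13 to 14.34. KRT8 ran from 6.25 to 7.77 and CDX2 from 6.29 to 7.72. The array means of 6 leukocyte markers were 4.42 to 4.52 with TQ, 4.47 to 5.08 with 5-FU, 4.42 to 4.80 with TQ+5-FU and 4.43 to 4.63 in control cells, and fibroblast and endothelial markers were likewise highest in 5-FU replicate 3. Their part in the results was not tested.

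All members that passed the test after 5-FU, alone or with TQ, were lower than in control cells. With all arrays, 10 of 51 fell with 5-FU and 0 rose, against 6.68% of all 22215 probe sets called in either direction and 3.13% called lower (limma, adjusted p under 0.05). With TQ+5-FU, 6 fell and 0 rose, against 2.58% of all probe sets called and 1.1% called lower. The median log2 difference of the members was -0.53 with 5-FU and -0.43 with TQ+5-FU, where the median over all genes was 0.09 and 0.01. With TQ alone the median was -0.06, against -0.09 over all genes, and no member passed. Across the 4 groups, 10 members passed the moderated F test of limma, against 7.54% of all probe sets, and 42 passed without the 2 arrays, against 42%.

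The number of calls with 5-FU depended on the fit. limma on the 5-FU and control arrays alone called 0 of the 51, against 0.729% of all probe sets, with 0 higher and 17 lower at an unadjusted p under 0.05, and the methods' t-test with Benjamini-Hochberg adjustment called 3 (1.19%). Without control replicate 1 or without control replicate 2 the 12-array count of 10 became 4 each time (2.98% and 3.28%), and that of 6 with TQ+5-FU became 1 (0.824% and 0.846%). With TQ+5-FU the fit on the compared groups alone called 8 (3.88%) and the methods' t-test 6 (2.46%), the 6 members that fell being called by both.

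Without the 2 arrays that stood apart, 25 members passed as lower and 3 as higher with 5-FU, and likewise 25 and 3 with TQ+5-FU, while the share of all probe sets called grew to 26.1% with 5-FU (13.5% lower, 12.7% higher) and to 21.4% with TQ+5-FU (10.7% in each direction). All 10 and all 6 members that fell with all arrays also passed there. The medians were then -0.35 with 5-FU and -0.33 with TQ+5-FU, against -0.01 and -0.03 over all genes. The fit on 10 arrays rests on 2 arrays in each of these groups and borrows the spread of the others. In what follows "rose" and "fell" are used only of members that passed with all arrays.

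**Figure D1:**
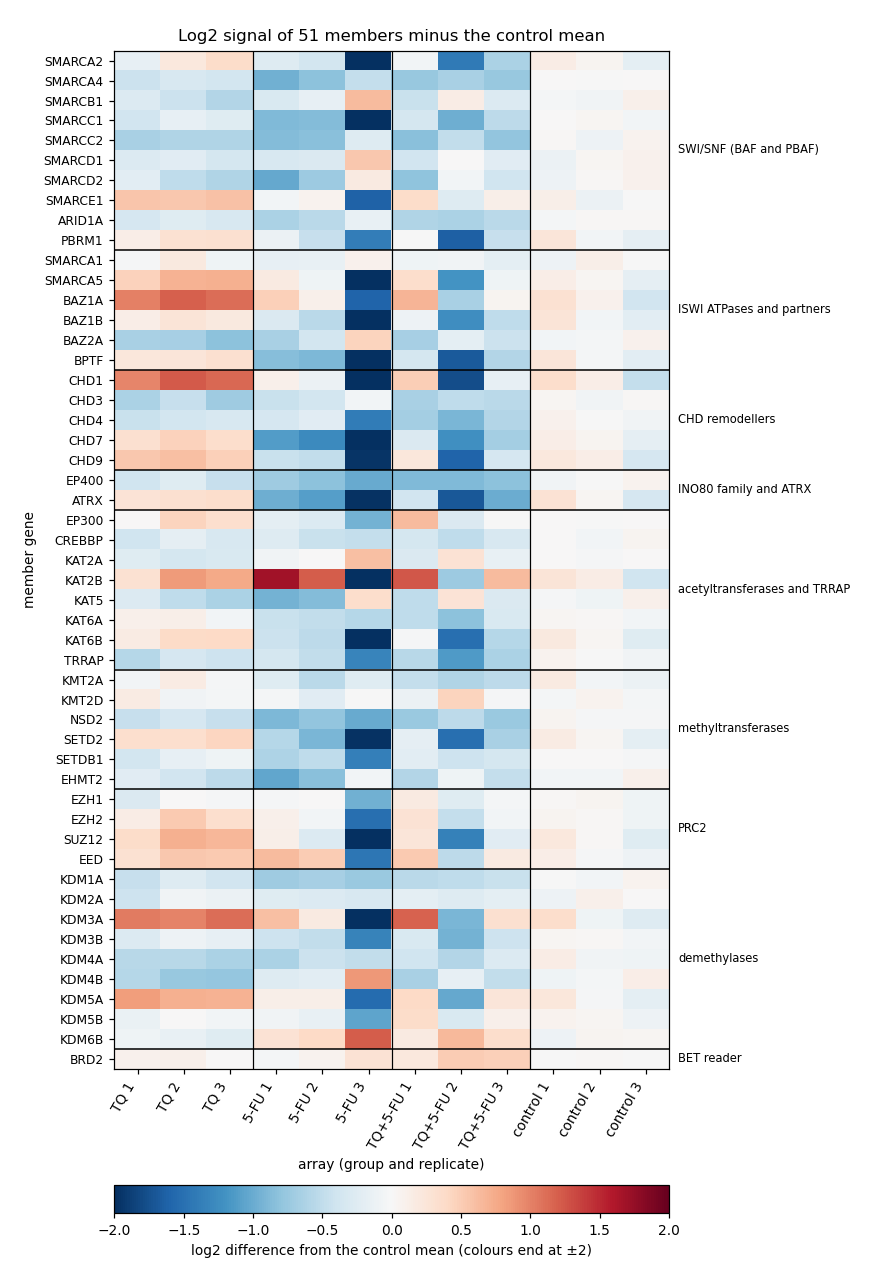
Log2 signal of the 51 members minus the mean of the 3 control arrays, with arrays in columns (TQ, 5-FU, TQ+5-FU, control), members in rows by class, and colours ending at ±2. The columns of 5-FU replicate 3 and TQ+5-FU replicate 2 differ from those of their own replicates, and the medians of all members in the other 5-FU arrays are -0.31 and -0.37.

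4 members fell in both 5-FU groups, and each of them passed in both groups without the 2 arrays that stood apart. EP400 is the ATPase of the complex that it forms with TRRAP and the acetyltransferase KAT5. Its signals were 7.86, 8.01 and 7.79 with TQ, 7.54, 7.44 and 7.24 with 5-FU, 7.37, 7.36 and 7.43 with TQ+5-FU and 8.18, 8.25 and 8.32 in control cells. All 6 arrays with 5-FU lay below the lowest TQ array, and all TQ arrays lay below the controls. The log2 difference was -0.85 ± 0.11 (SE; adjusted p = 0.00144, limma) with 5-FU, a level 1.80 times lower, and -0.86 ± 0.11 (adjusted p = 0.00288, limma) with TQ+5-FU. NSD2 codes for a methyltransferase that writes H3K36me2. NSD2 had 9.76, 9.89 and 9.76 with TQ, 9.32, 9.44 and 9.21 with 5-FU, 9.48, 9.69 and 9.49 with TQ+5-FU and 10.27, 10.20 and 10.20 in control cells. None of the treated groups overlapped with control, and the largest fall was with 5-FU at -0.90 ± 0.11 (adjusted p = 0.000839, limma), against -0.67 ± 0.11 (adjusted p = 0.00894, limma) with TQ+5-FU.

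KDM1A, a demethylase of histone H3 that works with the CoREST corepressor, read 10.12, 10.32 and 10.20 with TQ, 9.87, 9.91 and 9.83 with 5-FU, 10.05, 10.06 and 10.14 with TQ+5-FU and 10.57, 10.53 and 10.64 in control cells. The 5-FU arrays were lowest, the control arrays highest, and no group overlapped with control. It fell by 0.71 ± 0.10 with 5-FU (adjusted p = 0.00168, limma) and by 0.50 ± 0.10 with TQ+5-FU (adjusted p = 0.0232, limma). SMARCA4, the main SWI/SNF ATPase, gave 10.84, 10.95 and 10.91 with TQ, 10.31, 10.45 and 10.79 with 5-FU, 10.51, 10.61 and 10.51 with TQ+5-FU and 11.27, 11.25 and 11.28 in control cells. Every treated array was below every control, although 5-FU replicate 3 came closer to the controls than its replicates. Its log2 difference was -0.75 ± 0.12 with 5-FU (adjusted p = 0.00517, limma) and -0.72 ± 0.12 with TQ+5-FU (adjusted p = 0.0135, limma). In the fit on 10 arrays the differences of these 4 genes lay between -0.89 (SMARCA4) and -0.69 (KDM1A) with 5-FU and between -0.85 (EP400) and -0.49 (KDM1A) with TQ+5-FU. Leaving out any single array of the 12 kept the 5-FU call of these 4 genes, but with TQ+5-FU only EP400 kept its call each time, and the calls of NSD2, SMARCA4 and KDM1A were lost in 2, 5 and 7 of the 12 omissions. The other probe sets of the genes read the same way in part, with 5 of 7 further SMARCA4 probe sets, 2 of 2 for NSD2 and 1 of 1 for EP400 also called lower with 5-FU, whereas 1 SMARCA4 probe set had a difference of 0.20. KDM1A had a single probe set.

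The 250 bases before the start site of these 4 genes are shown because they were the members lower in both 5-FU groups. Sequences are from RefSeq (GRCh38.p14) and run 5′ to 3′ on the strand of the gene, which is the plus strand for all 4: chr12:131949692-131949941 for EP400, chr4:1871143-1871392 for NSD2, chr1:23019218-23019467 for KDM1A and chr19:10960780-10961029 for SMARCA4. Capitals mark the letters searched on both strands, namely CCGGAAG of ETS factors, CCAAT of the CCAAT box, GGCGGGA of E2F factors and TTTGAA of the cell cycle homology region, and matches of different motifs may overlap.
EP400: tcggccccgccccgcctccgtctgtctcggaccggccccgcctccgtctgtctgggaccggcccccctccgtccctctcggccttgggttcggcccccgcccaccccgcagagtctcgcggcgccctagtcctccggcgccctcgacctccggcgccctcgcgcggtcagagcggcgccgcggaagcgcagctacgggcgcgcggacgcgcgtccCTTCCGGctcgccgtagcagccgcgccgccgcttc
NSD2: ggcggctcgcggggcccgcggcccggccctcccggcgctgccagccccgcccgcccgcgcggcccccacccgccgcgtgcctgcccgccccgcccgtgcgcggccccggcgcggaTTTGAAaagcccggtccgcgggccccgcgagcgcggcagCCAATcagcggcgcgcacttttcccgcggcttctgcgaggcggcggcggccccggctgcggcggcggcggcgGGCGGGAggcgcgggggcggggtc
KDM1A: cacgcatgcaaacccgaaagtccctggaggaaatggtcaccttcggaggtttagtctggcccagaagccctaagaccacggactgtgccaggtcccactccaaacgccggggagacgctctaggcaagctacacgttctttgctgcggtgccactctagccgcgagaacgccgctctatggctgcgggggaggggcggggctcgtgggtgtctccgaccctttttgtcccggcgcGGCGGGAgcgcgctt
SMARCA4: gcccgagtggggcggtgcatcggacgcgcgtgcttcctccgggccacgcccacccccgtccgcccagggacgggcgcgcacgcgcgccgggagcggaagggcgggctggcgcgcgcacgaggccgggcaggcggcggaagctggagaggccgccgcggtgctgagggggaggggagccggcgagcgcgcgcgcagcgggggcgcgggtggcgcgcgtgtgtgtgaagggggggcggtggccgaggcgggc

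EP400 held the ETS letters on the opposite strand, NSD2 the CCAAT, E2F and homology region letters, KDM1A the E2F letters, and SMARCA4 none of them. A promoter was matched for 43 of the 51 members. The E2F letters were in 15 of them (34.9%), against 19.9% of 9563 promoters of genes on the array and 13.5% of all 35116 promoters. CCAAT was in 13 (30.2%, against 35.6% and 32.0%), the ETS letters in 4 (9.3%, against 12.8% and 8.52%) and the homology region letters in 2 (4.65%, against 9.72% and 13.3%). The median GC content was 68.0% over the members, 63.6% over genes on the array and 58.0% over all promoters. Of the 8 matched promoters of members that fell with 5-FU or TQ+5-FU, 2 held the E2F letters, 2 CCAAT, 1 the ETS letters and 1 the homology region letters. These are matches of letters in a window and were not tested as sites.

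**Figure D2:**
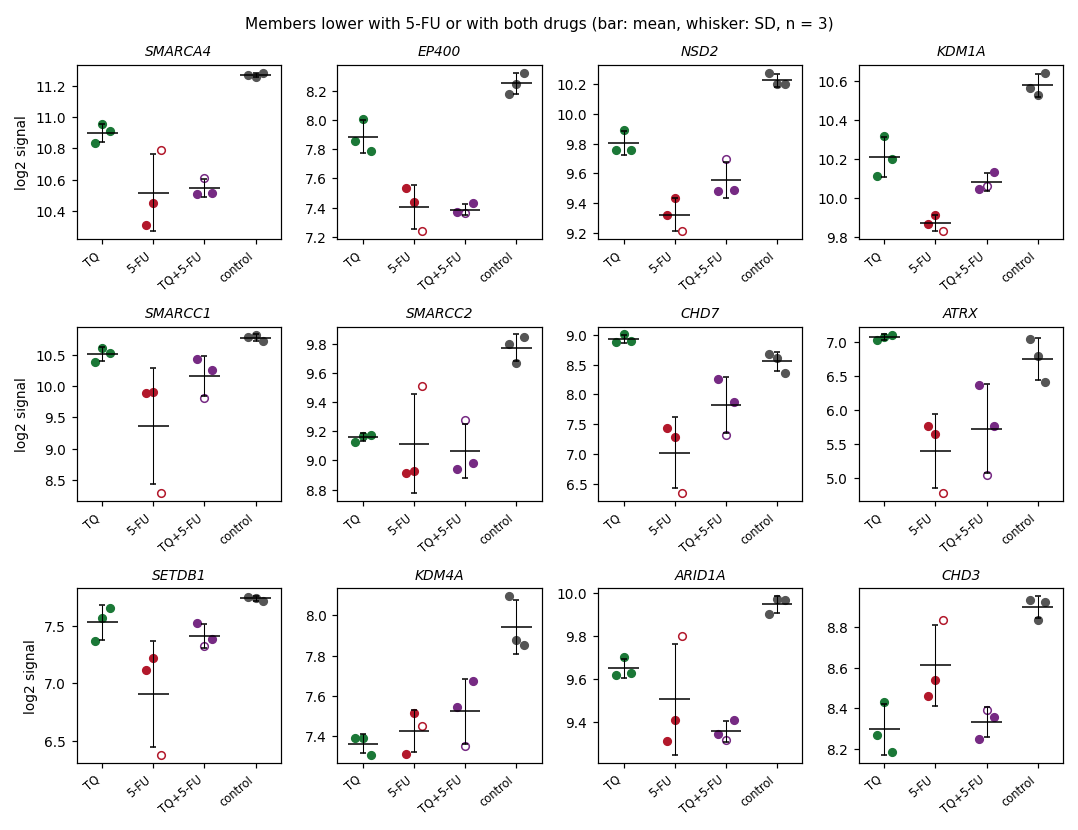
Log2 signal of the 12 members that fell with 5-FU or with TQ+5-FU, 1 point per array in the order TQ, 5-FU, TQ+5-FU and control, with bars at the mean and whiskers of 1 SD (n = 3); open points are 5-FU replicate 3 and TQ+5-FU replicate 2. EP400, NSD2 and KDM1A hold their open points near their replicates, whereas SMARCC1, CHD7 and SETDB1 have theirs lowest and SMARCC2, ARID1A and CHD3 theirs highest within 5-FU.

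Among the 10 SWI/SNF subunits, 3 fell with 5-FU (3.13% of all probe sets) and 2 with TQ+5-FU (1.1%), and 6 and 7 passed as lower without the 2 arrays (13.5% and 10.7%). SMARCC1 and SMARCC2 are the paired scaffold subunits of the complex. SMARCC1 had 10.39, 10.61 and 10.53 with TQ, 9.89, 9.91 and 8.28 with 5-FU, 10.43, 9.81 and 10.25 with TQ+5-FU and 10.79, 10.82 and 10.72 in control cells. Its 5-FU arrays were all below control, with replicate 3 displaced by -1.62 from the mean of its replicates. The difference with 5-FU was -1.42 ± 0.37 (adjusted p = 0.0466, limma), and -0.88 ± 0.09 (adjusted p = 6.25e-05) without the 2 arrays, but the 12-array call was lost in 9 of 12 omissions of a single array and kept only without a 5-FU array. SMARCC2 read 9.13, 9.17 and 9.18 with TQ, 8.91, 8.93 and 9.51 with 5-FU, 8.94, 9.28 and 8.98 with TQ+5-FU and 9.80, 9.67 and 9.85 in control cells. Here 5-FU replicate 3 lay above its replicates, and the 3 TQ arrays were close to each other. It fell with 5-FU by 0.66 ± 0.17 (adjusted p = 0.0409, limma), while the differences of -0.71 ± 0.17 with TQ+5-FU (adjusted p = 0.0558) and -0.61 ± 0.17 with TQ (adjusted p = 0.192) missed the threshold with all arrays. Both passed without the 2 arrays. The 5-FU call of SMARCC2 was lost in 10 of 12 omissions of a single array and kept only without 5-FU replicate 3 or TQ+5-FU replicate 2.

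ARID1A, the DNA-binding subunit of the BAF form, had 9.62, 9.70 and 9.63 with TQ, 9.31, 9.41 and 9.80 with 5-FU, 9.34, 9.32 and 9.41 with TQ+5-FU and 9.90, 9.97 and 9.97 in control cells. The 3 TQ+5-FU arrays were tightly placed near the lower 5-FU arrays, and 5-FU replicate 3 lay near the controls. It fell with TQ+5-FU (-0.59 ± 0.13, adjusted p = 0.0378, limma). This call was lost in 10 of 12 omissions of a single array and kept only without 5-FU replicate 1 or 3. Of the 3 other ARID1A probe sets, 2 had the same sign with TQ+5-FU and 1 was called. Their differences ran from -0.74 to 0.14. With 5-FU ARID1A passed only without the 2 arrays (-0.59 ± 0.08, adjusted p = 0.000257, limma). SMARCA2, the alternative ATPase, differed from SMARCA4 in its displaced arrays, with 7.82, 8.18 and 8.34 with TQ, 7.72, 7.61 and 5.80 with 5-FU, 7.92, 6.56 and 7.35 with TQ+5-FU and 8.12, 8.02 and 7.78 in control cells. Its groups overlapped with control except with 5-FU, and the difference of -0.93 ± 0.48 (adjusted p = 0.348) did not pass in either fit. SMARCE1, a subunit with an HMG box, was the SWI/SNF member with the largest positive difference under TQ (0.56 ± 0.37, adjusted p = 0.698). It had 10.32, 10.32 and 10.36 with TQ and 9.89, 9.66 and 9.77 in control cells, with no overlap, and passed without the 2 arrays (adjusted p = 0.00144).

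Of the ISWI class no member fell with either 5-FU group when all arrays were used, although its median difference with 5-FU was -0.61. BPTF, the reader subunit of the NURF complex, had 9.19, 9.21 and 9.29 with TQ, 8.12, 8.06 and 6.87 with 5-FU, 8.62, 7.29 and 8.38 with TQ+5-FU and 9.21, 8.92 and 8.76 in control cells. All 5-FU and TQ+5-FU arrays were below the controls, yet the differences of -1.28 ± 0.38 (adjusted p = 0.0798) and -0.87 ± 0.38 (adjusted p = 0.421) missed the threshold, and both passed without the 2 arrays. BAZ2A, the partner of SMARCA5 in the nucleolar remodelling complex, was with TQ at 7.81 ± 0.09, against 8.52 ± 0.08 in control cells (SD, n = 3 each), a difference of -0.71 ± 0.24 (adjusted p = 0.309). SMARCA5, the main ISWI ATPase, was 9.34, 9.57 and 9.59 with TQ and 9.02, 8.92 and 8.69 in control cells, higher on each TQ array. It is read by a probe set marked as open to cross-hybridisation, and 2 of 2 further probe sets had the same sign. SMARCA1, its paralog, stayed between 3.15 and 3.53 on all arrays.

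CHD7 had the largest fall of any member with 5-FU. CHD7, mutated in CHARGE syndrome, gave 8.88, 9.01 and 8.90 with TQ, 7.44, 7.29 and 6.34 with 5-FU, 8.27, 7.33 and 7.88 with TQ+5-FU and 8.68, 8.61 and 8.37 in control cells. All arrays with 5-FU were below control, whether alone or combined, and all TQ arrays were above. The difference with 5-FU was -1.53 ± 0.29 (adjusted p = 0.0109, limma), and -1.19 ± 0.13 without the 2 arrays (adjusted p = 7.87e-05), and the call was lost without control replicate 1 or 2. Its other probe set showed no such fall (difference 0.06). CHD3 and CHD4 are the ATPases of the NuRD complex. CHD3 read 8.27, 8.43 and 8.18 with TQ, 8.46, 8.54 and 8.84 with 5-FU, 8.25, 8.39 and 8.36 with TQ+5-FU and 8.94, 8.84 and 8.93 in control cells, so that TQ and TQ+5-FU arrays were at a similar level and 5-FU replicate 3 overlapped with control. CHD3 fell with TQ+5-FU (-0.57 ± 0.12, adjusted p = 0.0386, limma), but the call was lost in 10 of 12 omissions of a single array and kept only without 5-FU replicate 1 or 3. Its other probe set had a difference of -0.46 and was not called. With TQ its difference of -0.60 ± 0.12 had the smallest p of any member (adjusted p = 0.0835) and missed the threshold. CHD4 differed from control by -0.38 ± 0.26 with TQ, -0.66 ± 0.26 with 5-FU and -0.73 ± 0.26 with TQ+5-FU, and passed in all 3 only without the 2 arrays.

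ATRX, the remodeller that places histone H3.3 in heterochromatin with DAXX, fell with 5-FU. Its signals were 7.03, 7.08 and 7.11 with TQ, 5.77, 5.66 and 4.78 with 5-FU, 6.37, 5.05 and 5.77 with TQ+5-FU and 7.05, 6.79 and 6.42 in control cells. All TQ+5-FU and 5-FU arrays lay below the controls, and the controls themselves spread over 0.62. The difference with 5-FU was -1.35 ± 0.34 (adjusted p = 0.0386, limma), and the call was lost in 8 of 12 omissions of a single array, each control and each TQ array among them. With TQ+5-FU it was -1.03 ± 0.34 (adjusted p = 0.194), and this passed without the 2 arrays (adjusted p = 0.0238). The 3 other ATRX probe sets had the same sign with 5-FU, between -0.50 and -0.21, and none was called.

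No acetyltransferase fell or rose against control with all arrays. KAT6A, of the MYST family, came nearest with 5-FU (-0.50 ± 0.13, adjusted p = 0.0503), with 8.17, 8.18 and 8.02 with TQ, 7.62, 7.58 and 7.51 with 5-FU, 7.56, 7.24 and 7.77 with TQ+5-FU and 8.10, 8.10 and 8.01 in control cells. Its 5-FU and TQ+5-FU arrays were all below the TQ and control arrays. KAT5, the TIP60 enzyme, had 8.75, 8.51 and 8.39 with TQ, 8.07, 8.16 and 9.38 with 5-FU, 8.51, 9.29 and 8.74 with TQ+5-FU and 8.99, 8.94 and 9.12 in control cells. The 2 arrays that stood apart were the highest of their groups and above the controls, and without them the difference with 5-FU was -0.91 ± 0.12 (adjusted p = 0.000241), against -0.49 ± 0.32 (adjusted p = 0.462) with all arrays. Its probe set is open to cross-hybridisation, and 2 of 2 further ones had the same sign. KAT2B, a SAGA-type acetyltransferase, went the other way, with 6.69, 7.23 and 7.14 with TQ, 8.06, 7.59 and 4.37 with 5-FU, 7.63, 5.66 and 7.01 with TQ+5-FU and 6.63, 6.53 and 5.98 in control cells. Of the 12 arrays, 5-FU replicate 1 was the highest and 5-FU replicate 3 the lowest. KAT2B was the only member that passed as higher in all 3 treated groups without the 2 arrays, with differences of 0.64 ± 0.22 under TQ, 1.44 ± 0.25 under 5-FU and 0.94 ± 0.25 under TQ+5-FU (adjusted p = 0.0484, 0.00134 and 0.0198, limma). With all arrays its adjusted p lay at 0.829 or above.

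Of the 3 pairs of paralogs in this class, 2 had differences of opposite sign under TQ. KAT2A was lower on each TQ array than on any control (-0.30 ± 0.19), where KAT2B was higher on each (0.64 ± 0.83). CREBBP was likewise lower (-0.30 ± 0.11) and EP300 higher (0.26 ± 0.25), the EP300 values being 6.92, 7.36 and 7.24 with TQ and 6.92, 6.90 and 6.92 in control cells. None of these 4 passed with all arrays, and KAT2A, KAT2B and CREBBP passed without the 2 arrays. The lowest EP300 array with TQ was level with the controls at 2 decimals. KAT6A (0.05 ± 0.13) and KAT6B (0.32 ± 0.48) had the same sign and overlapped with control.

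Of the 6 methyltransferases, NSD2 and SETDB1 fell with 5-FU and NSD2 also with TQ+5-FU. SETDB1, which writes H3K9me3 to silence retroelements, had 7.36, 7.57 and 7.66 with TQ, 7.12, 7.22 and 6.38 with 5-FU, 7.52, 7.32 and 7.39 with TQ+5-FU and 7.75, 7.74 and 7.71 in control cells. All 5-FU and TQ+5-FU arrays were below the controls, and 5-FU replicate 3 was lowest. The difference with 5-FU was -0.83 ± 0.20 (adjusted p = 0.0303, limma), and -0.57 ± 0.10 without the 2 arrays (adjusted p = 0.00151), and the call was lost in 6 of 12 omissions of a single array, each control array among them. Its other probe set had a difference of 0.18. SETD2, which writes H3K36me3, was on average 6.60 ± 0.73 with 5-FU and 7.75 ± 0.18 in control cells (SD, n = 3 each), a difference of -1.16 ± 0.37 that missed the threshold (adjusted p = 0.108) and passed without the 2 arrays (-0.74 ± 0.15, adjusted p = 0.00434). EHMT2, or G9a, read 9.02, 8.86 and 8.72 with TQ, 8.21, 8.40 and 9.18 with 5-FU, 8.66, 9.16 and 8.76 with TQ+5-FU and 9.19, 9.18 and 9.35 in control cells. It passed with neither drug when all arrays were used, and 5-FU replicate 3 and TQ+5-FU replicate 2 were near the control level while their replicates were below it. Without them EHMT2 differed by -0.94 ± 0.11 with 5-FU (adjusted p = 0.000106, limma). Its other probe set had a difference of -0.04 with 5-FU with all arrays and was called lower in neither fit. KMT2A, the MLL enzyme, differed by -0.34 ± 0.13 with 5-FU and -0.54 ± 0.13 with TQ+5-FU and passed in both only without the 2 arrays, and KMT2D did not pass in any pairwise comparison.

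No PRC2 subunit fell. EZH2, its catalytic subunit, had 10.11, 10.48 and 10.30 with TQ, 10.07, 9.90 and 8.46 with 5-FU, 10.25, 9.49 and 9.92 with TQ+5-FU and 10.02, 9.99 and 9.89 in control cells. SUZ12, its scaffold, read 10.29, 10.64 and 10.59 with TQ, 10.05, 9.66 and 7.06 with 5-FU, 10.17, 8.58 and 9.70 with TQ+5-FU and 10.14, 9.95 and 9.69 in control cells. In both, the TQ group had the highest mean, 5-FU replicate 3 was the lowest array, and the remaining 5-FU arrays overlapped with control. EED, which binds the methylated tail, was 10.57, 10.80 and 10.79 with TQ, 10.89, 10.76 and 8.82 with 5-FU, 10.78, 9.74 and 10.45 with TQ+5-FU and 10.39, 10.23 and 10.16 in control cells. EED was above control on every array but 5-FU replicate 3 and TQ+5-FU replicate 2. Without these 2, EED passed with a difference of 0.46 ± 0.11 under TQ (adjusted p = 0.0094, limma) and of 0.57 ± 0.12 under 5-FU (adjusted p = 0.0053, limma). Under TQ+5-FU the difference of 0.35 ± 0.12 missed the threshold (adjusted p = 0.0626). Its other probe set had differences of 1.35 with TQ and 0.21 with 5-FU with all arrays. EZH1, the second catalytic paralog, overlapped with control in each treated group and did not pass in either fit against control.

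Besides KDM1A, the demethylase KDM4A fell with 5-FU. KDM4A, which erases H3K9me3 and H3K36me3, gave 7.39, 7.39 and 7.31 with TQ, 7.31, 7.52 and 7.45 with 5-FU, 7.55, 7.35 and 7.67 with TQ+5-FU and 8.10, 7.88 and 7.85 in control cells. All 9 treated arrays lay below the 3 controls, with the TQ arrays as low as the 5-FU arrays. The difference with 5-FU was -0.52 ± 0.12 (adjusted p = 0.0273, limma), against -0.58 ± 0.12 with TQ (adjusted p = 0.0841) and -0.42 ± 0.12 with TQ+5-FU (adjusted p = 0.116). The other KDM4A probe set had a difference of -0.29 with 5-FU with all arrays and was called lower only without the 2 arrays. The 5-FU call of KDM4A was lost in 6 of 12 omissions of a single array, each control array among them. Its paralog KDM4B had 9.03, 8.85 and 8.83 with TQ, 9.36, 9.40 and 10.47 with 5-FU, 8.96, 9.45 and 9.12 with TQ+5-FU and 9.52, 9.58 and 9.74 in control cells. KDM4B was below control on each TQ and TQ+5-FU array and highest of all in 5-FU replicate 3. KDM6B, an inducible demethylase of H3K27me3, was the only member above control on all 5-FU arrays (0.64 ± 0.22, adjusted p = 0.137), against 12.5% of all probe sets, and it passed only without the 2 arrays. BRD2, a BET protein that reads acetylated histones, was above control on all TQ+5-FU arrays (0.40 ± 0.12, adjusted p = 0.141) and passed without the 2 arrays. BRD2 is read by a probe set open to cross-hybridisation.

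**Figure D3:**
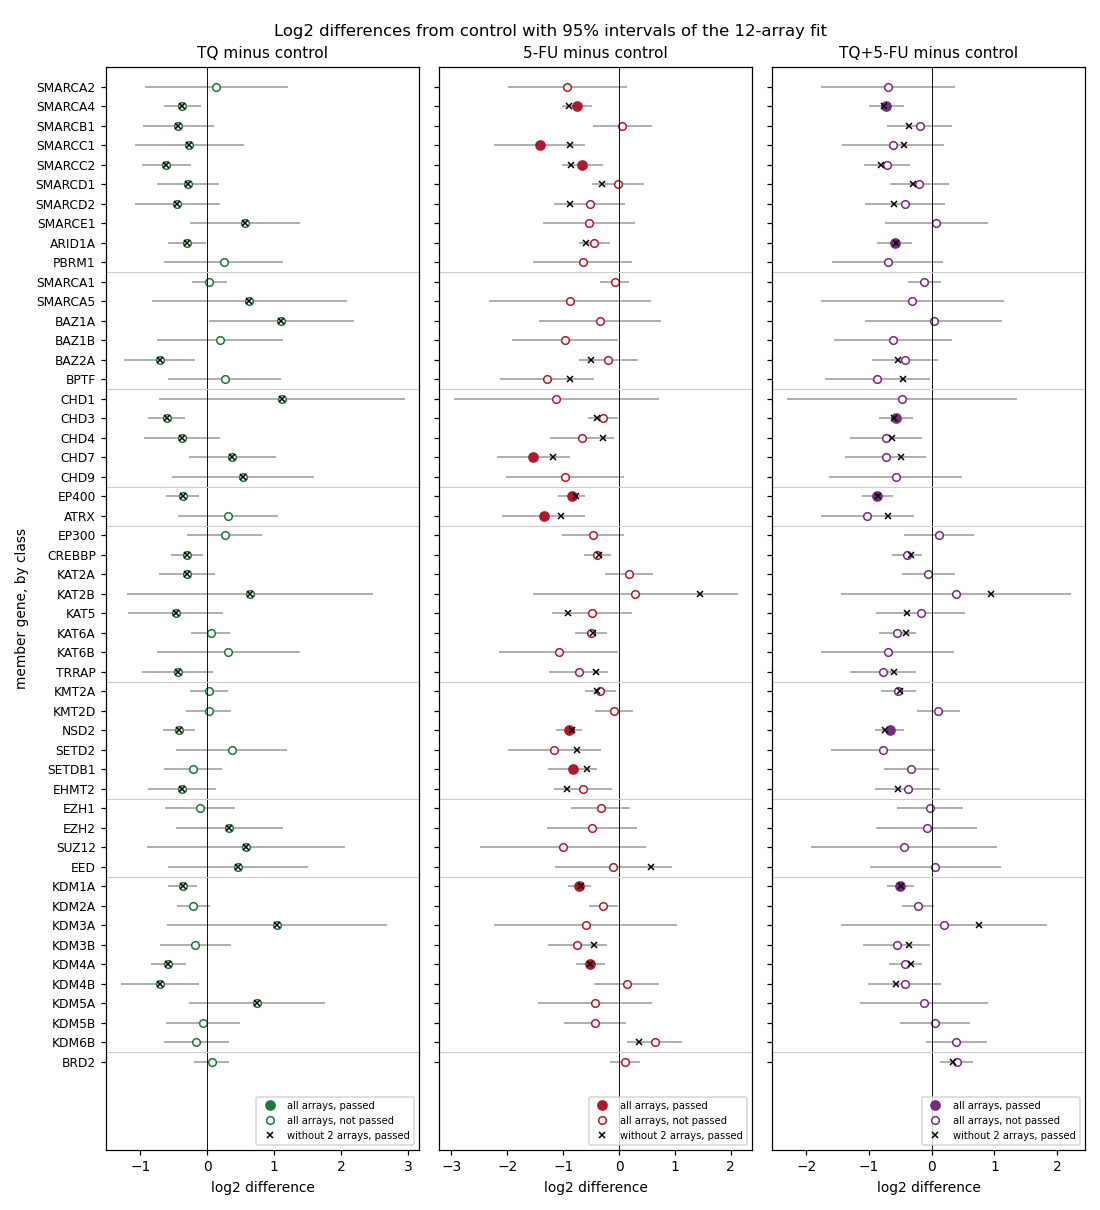
Log2 difference from control of each member with its 95% interval from the 12-array fit, for TQ, 5-FU and TQ+5-FU; filled points passed with all arrays, open points did not, and crosses give the difference of members that passed without the 2 arrays. The TQ panel has no filled point and 32 crosses, and the other panels have 10 and 6 filled points, all below 0.

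With TQ alone, 0 of 51 members passed with all arrays, against 0.252% of all probe sets (limma); 12 had an unadjusted p under 0.05, of which 1 was higher and 11 lower (3.37% and 6.34% of all probe sets). The TQ and control arrays themselves were closely spaced, the median SD over members being 0.11 with TQ and 0.09 in control cells, against 0.55 with 5-FU and 0.31 with TQ+5-FU. Without the 2 arrays, which belong to neither group and leave the TQ difference unchanged, 32 members passed, 12 higher and 20 lower, against 30.6% of all probe sets. A fit on the TQ and control arrays alone gave 33, of which 13 were higher, against 29.5% of all probe sets. The methods' t-test with Benjamini-Hochberg adjustment gave 17, against 16.2%, and their Tukey's HSD gave 7, against 2.93%. For 22 members every TQ array lay below every control (43.1%, against 27.8% of all probe sets), and for 14 every TQ array lay above (27.5%, against 16.6%).

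The members above control on each TQ array were SMARCE1, SMARCA5, BAZ1A, CHD1, CHD7, CHD9, EP300, KAT2B, SETD2, EZH2, SUZ12, EED, KDM3A and KDM5A. Some of them were chosen for description after their values were seen. CHD1, a remodeller of transcribed genes, had 9.08, 9.34 and 9.25 with TQ, 8.20, 7.98 and 4.77 with 5-FU, 8.60, 6.34 and 7.95 with TQ+5-FU and 8.46, 8.23 and 7.62 in control cells. Its 3 TQ arrays stood above each control, while 5-FU replicate 3 was displaced by -3.32 from the mean of its replicates. The difference with TQ was 1.12 ± 0.83, with adjusted p = 0.723 with all arrays and 0.00308 without the 2 (limma). KDM3A, a demethylase of H3K9me2, read 8.60, 8.57 and 8.68 with TQ, 8.17, 7.75 and 4.99 with 5-FU, 8.75, 6.66 and 7.88 with TQ+5-FU and 7.91, 7.47 and 7.32 in control cells. TQ arrays again formed a narrow group above control, and the difference was 1.05 ± 0.74 (adjusted p = 0.714; 0.00441 without the 2 arrays, limma). BAZ1A, the ACF1 partner of SMARCA5, was 9.07, 9.24 and 9.18 with TQ and 8.36, 8.14 and 7.67 in control cells, and its other probe set had a difference of 1.07 beside 1.11 here. BAZ1B, the paralog of BAZ1A, overlapped with control under TQ (0.19), and its other probe sets lay between -0.28 and -0.17. KDM5A differed by 0.75 with TQ, whereas its paralog KDM5B overlapped with control (-0.06). Neither BAZ1B nor KDM5B passed under TQ in either fit.

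**Figure D4:**
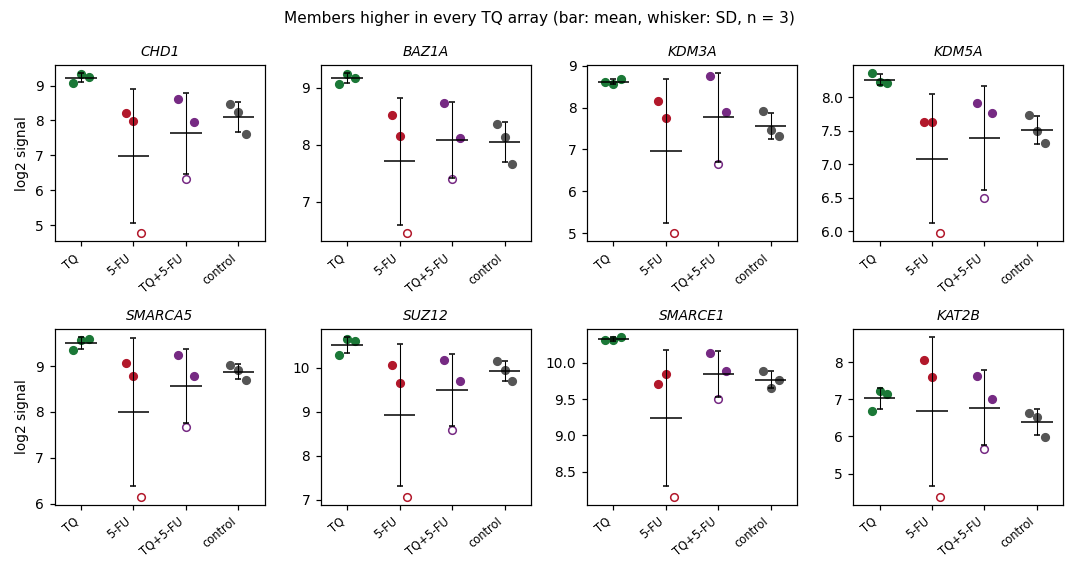
Log2 signal of 8 members that were higher on each TQ array than on any control, 1 point per array in the order TQ, 5-FU, TQ+5-FU and control, with bars at the mean and whiskers of 1 SD (n = 3); open points are 5-FU replicate 3 and TQ+5-FU replicate 2. In each panel the TQ points lie above the controls and the open 5-FU point is the lowest of the 12.

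Set directly against 5-FU, TQ left 8 members higher and 1 lower with all arrays, against 10.2% of all probe sets called, 3.57% higher and 6.61% lower. The higher ones were BPTF, CHD7, EP400, ATRX, KAT6A, NSD2, SETD2 and KDM1A, with differences between 0.34 for KDM1A and 1.91 for CHD7 (adjusted p = 0.0475 and 0.00351, limma). KDM6B was the lower one (-0.80 ± 0.22, adjusted p = 0.0455, limma), with 8.89, 8.82 and 8.72 with TQ and 9.27, 9.38 and 10.18 with 5-FU. Without the 2 arrays 27 passed as higher and 4 as lower, against 28.6% of all probe sets (14% higher and 14.6% lower), and the 9 were among them. limma on the TQ and 5-FU arrays alone called 0, against 0.882% of all probe sets, with 17 higher and 2 lower at an unadjusted p under 0.05, and the methods' t-test with Benjamini-Hochberg adjustment also called 0 (0.446%). Without TQ replicate 2 or without TQ replicate 3 the 12-array count became 1 (3.56% and 3.28%). Of the 9, only CHD7 kept its call whichever single array was left out, and the KDM1A call was lost in 11 of 12 omissions. The other CHD7 probe set had a difference of -0.03 in this comparison with all arrays and was not called.

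Adding TQ to 5-FU changed no member by the test on all arrays, against 0.738% of all probe sets, with 4 higher and 1 lower at an unadjusted p under 0.05 (4.3% and 5.19% of all probe sets). Tukey's HSD called 1, against 3.48% of all probe sets, and the methods' t-test with Benjamini-Hochberg adjustment 0, against 0%. Without the 2 arrays SMARCC1 (0.44 ± 0.10, adjusted p = 0.0289), CHD7 (0.71 ± 0.14, adjusted p = 0.0161) and KAT5 (0.51 ± 0.13, adjusted p = 0.0446) passed as higher with TQ+5-FU than with 5-FU (limma). They are 5.88% of the 51, no larger a share than the 6.13% of all probe sets called there. The other CHD7 probe set had a difference of -0.02 with all arrays and was not called. The interaction, which is the TQ+5-FU group minus both single drugs plus control, passed for 0 members with all arrays (0.126% of all probe sets; 7 positive and 0 negative at an unadjusted p under 0.05, against 4.31% and 1.78%). Without the 2 arrays 11 passed, against 9.89%: SMARCA4, SMARCC1, SMARCC2, BAZ2A, KAT5, NSD2, SETDB1, EHMT2, KDM1A and KDM4A were positive and EED was negative. The other probe sets of SETDB1, EHMT2 and EED were not called in the same direction there, and KDM1A had no other. Each of the rest had another one called in the same direction, BAZ2A 1 of 3 and NSD2 1 of 2. A positive value means that the difference with both drugs lay above the sum of the single ones, not that a gene rose. For KDM4A, for example, the 10-array differences from control were -0.58 with TQ, -0.53 with 5-FU and -0.33 with both, and the interaction was 0.77 ± 0.14 (adjusted p = 0.0106, limma). In KAT5 they were -0.47, -0.91 and -0.40, with an interaction of 0.98 ± 0.17 (adjusted p = 0.00792, limma).

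The direction of displacement was shared between the 2 arrays for most members, as it was for most genes. Against the mean of its replicates, 5-FU replicate 3 lay between -3.45 (KAT2B) and 1.27 (KAT5), with a median of -0.79 and 20 members below -1, whereas over all genes the median was 0.44. TQ+5-FU replicate 2 lay between -1.94 (CHD1) and 0.67 (KAT5), with a median of -0.31. The remaining 5-FU arrays differed from each other by at most 0.46. Across the 51 members the displacements of both arrays had a Pearson r of 0.924, and 47 members shared a sign. Over all 11963 genes r was 0.895, and 10839 genes shared a sign. These are correlations across genes, which are not independent replicates. The 14 members above control on each TQ array were all displaced downwards in both arrays, between -3.45 and -0.71 in 5-FU replicate 3, and 13 of them were higher in control replicate 1 than in replicate 3. The matching shares among all genes above control on each TQ array are not given here, so these counts are not particular to the members. Across the 51 members, the displacement of 5-FU replicate 3 had an r of -0.825 with the TQ difference (-0.702 over all genes) and of -0.841 with the difference between control replicates 1 and 3 (-0.688 over all genes). The members EP400, KDM1A, KDM4A and NSD2 were displaced by at most 0.26 in either array. What displaced the arrays was not tested.

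**Figure D5:**
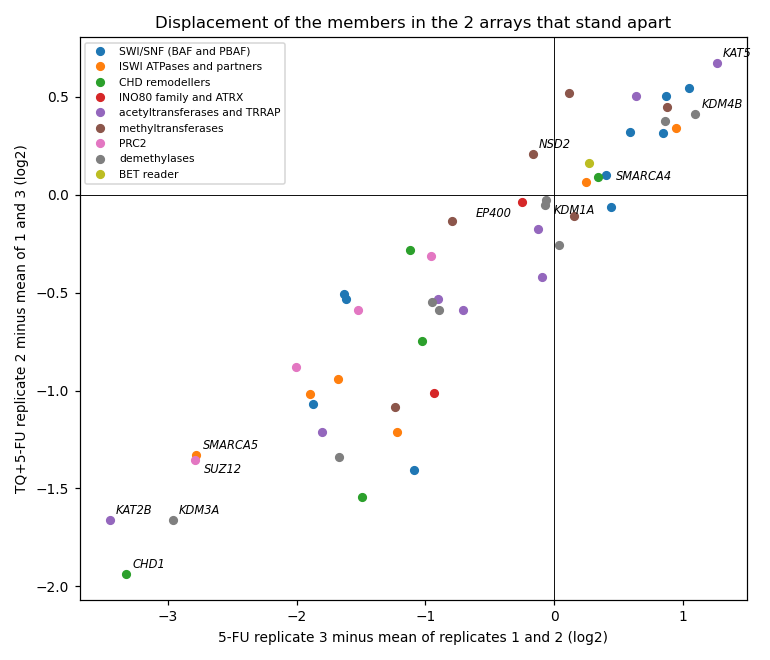
Displacement of each member on the log2 scale, with 5-FU replicate 3 minus the mean of its replicates on the horizontal axis and TQ+5-FU replicate 2 minus the mean of its replicates on the vertical axis, coloured by class. KAT2B, CHD1, KDM3A, SUZ12 and SMARCA5 lie far to the lower left, KAT5 and KDM4B at the upper right, and EP400, KDM1A and NSD2 near 0.

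A further 59 of 76 chromatin genes listed by function had a probe set. With 5-FU, 4 of them fell and 1 rose (6.68% of all probe sets called), with a median of -0.26, and without the 2 arrays 23 passed as lower and 6 as higher (49.2%, against 26.1% of all probe sets). RUVBL1, an ATPase shared by the INO80 and EP400 complexes, fell by 0.72 ± 0.10 (adjusted p = 0.00193, limma), TADA2A of the ATAC acetyltransferase complex by 0.72 ± 0.14 (adjusted p = 0.0113), JARID2, a PRC2 cofactor, by 1.17 ± 0.25 (adjusted p = 0.0192) and ASXL1, of the Polycomb deubiquitinase, by 0.75 ± 0.12 (adjusted p = 0.00373). SUPT7L, a SAGA subunit, rose by 0.53 ± 0.14 (adjusted p = 0.0444). ASXL1 also fell with TQ+5-FU, by 1.01 ± 0.12 (adjusted p = 0.00173), and was the only one of the 59 to do so with all arrays, whereas 20 passed as lower and 5 as higher without the 2 arrays (42.4%, against 21.4% of all probe sets). RUVBL1 was higher with TQ+5-FU than with 5-FU, at a mean of 10.98 against 10.38, a difference of 0.60 ± 0.10 (adjusted p = 0.0249, limma), and it was the only one among the 59 and the 51 that passed in that comparison with all arrays. With TQ none of the 59 passed with all arrays, 2 having been higher and 10 lower at an unadjusted p under 0.05 (limma; 3.37% and 6.34% of all probe sets). In the fit on 10 arrays 36 of the 59 passed with TQ, 9 higher and 27 lower, which is 61% against 30.6% of all probe sets.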

How the data were processed

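The authors deposited log2 signals of 12 U133A 2.0 arrays of RKO cells, already background-corrected, normalized and summarised per probe set by RMA, and these were used as deposited. The submitters' processing notes name Affymetrix Expression Console and the paper's methods another program for this step, and the values do not show which was used. The table holds 22277 probe sets; the 62 Affymetrix controls among them entered no test, which left 22215, of which 19064 name 1 gene, 1043 several and 2108 none. No column was left unused.

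The 3 arrays of TQ, 5-FU, TQ+5-FU and control were fitted together with 1 mean per group in limma 3.58.1 (R 4.3.3) with empirical Bayes moderation, two-sided, and adjusted by Benjamini-Hochberg over all probe sets at 0.05. Each member was read from its single-gene probe set with the highest mean, and symbols were updated through RefSeq (GRCh38.p14). Members, lists and the rule for names were chosen with earlier results of these data known. Named are, in each class, members that passed (at most 5 by the smallest F p), the 2 with the smallest F p without 5-FU replicate 3 and TQ+5-FU replicate 2, a lead gene and pairs of paralogs; others were named after their values were seen.

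The alternatives were leaving out those 2 arrays, leaving out each array in turn, a replicate block, quantile normalization, centring, a filter on the 30% dimmest probe sets, the mean of a gene's probe sets, array weights, the compared groups only, and the methods' t-test (used there for volcano plots, here also with Benjamini-Hochberg adjustment) and ANOVA with Tukey's HSD. Replicate numbers were not taken as pairs. The procedure was tested on simulated data for TQ minus control only, with independent noise of the same spread on every array. Such data hold no displaced arrays, so that this test does not show how the procedure performs with them. The number of arrays limits the precision, and array data give no read depth. Python 3.11.15 and matplotlib 3.10.9 drew the figures.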

Additional observations from a re-analysis of the deposited data

Results flagged for a closer look

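The spiked poly-A controls lie outside the comparisons, and their mean log2 signal was 9.466 in 5-FU replicate 3, above the highest control array at 8.967. With 1 array there is no test of this difference, and its part in the members' values on that array was not tested. Groups of 3 arrays were not tested for single outlying arrays.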

How the results depend on the processing

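The counts of members called were 10 across the 4 groups, 0 for TQ, 10 for 5-FU, 6 for TQ+5-FU, 9 for TQ against 5-FU, 0 for TQ+5-FU against 5-FU and 0 for the interaction. In that order, the 10 arrays that remain without 5-FU replicate 3 and without TQ+5-FU replicate 2 gave 42, 32, 28, 28, 31, 3 and 11, and array weights 48, 36, 32, 38, 36, 13 and 30, with 67.8%, 48.2%, 36.5%, 43.0%, 39.9%, 20.3% and 36.3% of all probe sets called. The weight was 9.48 for TQ+5-FU replicate 3, against 0.515 and 0.15 for its replicates, and 0.0247 for 5-FU replicate 3. The weighted TQ+5-FU mean thus rested mostly on a single array, and the weighted counts that use it have little replication behind them. A replicate block gave 6 across the groups, 6 for 5-FU, 3 for TQ+5-FU, 5 for TQ against 5-FU and 0 for the others; same-numbered arrays of different groups had correlations of deviations between -0.836 and 0.859, above 0.1 in 6 of 18 pairs, so the numbers were not taken as pairs. Centring of arrays gave 6 across the groups, 2 for TQ+5-FU and 4 for TQ against 5-FU. The shares of all probe sets called with the block and with centring are not given here. These counts thus do not show whether the members moved more than the array as a whole. The compared groups alone gave 33 for TQ, 0 for 5-FU and 0 for TQ against 5-FU (0.729% and 0.882% of all probe sets for the last 2). The methods' t-test, adjusted here by Benjamini-Hochberg, gave 17 for TQ, 3 for 5-FU and 0 for TQ against 5-FU; at an unadjusted p under 0.05 it gave 12 higher and 21 lower for TQ, 0 and 14 for 5-FU and 10 and 0 for TQ against 5-FU (35.3%, 11.6% and 14.5% of all probe sets). Tukey's HSD gave 7 for TQ and 1 for TQ+5-FU against 5-FU. Leaving out each array in turn gave 4 to 27 across the groups, 0 to 13 for TQ, 4 to 18 for 5-FU, 1 to 18 for TQ+5-FU, 1 to 18 for TQ against 5-FU, 0 to 0 for TQ+5-FU against 5-FU and 0 to 6 for the interaction. For the counts across the groups, for 5-FU and for TQ+5-FU, the lowest came without control replicate 1 or 2. Across the groups 3.7% and 3.69% of all probe sets were then called. For TQ against 5-FU the lowest came without TQ replicate 2 or 3 (1 each). For TQ and for the interaction the count was 0 in every omission but that of 5-FU replicate 3. The highest counts came without 5-FU replicate 3, or without 5-FU replicate 1 for TQ against 5-FU (18). TQ+5-FU against 5-FU stayed at 0. Shares of all probe sets are not given for the highest counts, which thus do not show whether the members moved more than the array as a whole. Quantile normalization, the filter on dim probe sets and the mean of all probe sets of a gene moved no count by over 1.5 times. For the 25 calls of single members, 351 of 550 alternative values kept the call, 199 lost it and 0 reversed. The cause of these shifts was not tested. With 3 arrays per group, and 2 in a group after an array is left out, small differences are not resolved, and a member that missed the threshold is not shown to be unchanged.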
